A study of Danio rerio with 10 samples.

Results

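The heart chamber and natriuretic peptide genes of the zebrafish larva were followed here in larvae with and without aldh2.1. The genes were chosen by symbol, not by their values: myl7, myh6, vmhc, myh7ba, tnnt2a, nppa, nppb, nkx2.5, gata4 and tbx5a. These 10 symbols led to 13 of the 32520 Ensembl genes in the deposited tables, of which 29201 had a symbol in the name table used. For 6 symbols the symbol itself was found, ignoring case, and gave 8 genes, and for the other 4 symbols another name in RefSeq gave 5 genes. Because the name table mixes human and zebrafish symbols, each gene is called here by the symbol in that table, with its Ensembl identifier where a symbol occurs more than once. Thus myh6 led to myh6 (ENSDARG00000090637) and to 2 genes listed as MYH6 (ENSDARG00000079564 and ENSDARG00000114031). RefSeq lists vmhc under the name myh7, so vmhc led to MYH7 (ENSDARG00000079782), a match by that name alone. The symbol tnnt2a led to 2 genes listed as TNNT2 (ENSDARG00000020610 and ENSDARG00000100694), nkx2.5 to NKX2-5 and tbx5a to TBX5. Which of the genes listed as TNNT2 is tnnt2a, and whether a gene listed as MYH6 is a ventricular or skeletal copy, could not be read from these tables.

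The zebrafish heart has a single atrium and a single ventricle, which beat with chamber-specific myosins: myh6 codes for the atrial and vmhc for the ventricular heavy chain, while the light chain gene myl7 and the troponin gene tnnt2a are used in both chambers. Heart muscle cells also release the peptide hormones of nppa and nppb, which act on salt, water and vessel tone, and these genes are widely read as signs of load on the heart. The transcription factors nkx2.5, gata4 and tbx5a build the heart in the embryo and keep on regulating these muscle and hormone genes.

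Whole larvae at 120 hpf were sequenced on the BGISEQ-500 platform, in 5 libraries of aldh2.1-/- and 5 libraries of aldh2.1+/+ larvae, with 50 larvae pooled in each. Replicates are numbered 1, 2, 3, 5 and 6 in each genotype. The aldh2.1-/- larvae carry a single CRISPR/Cas9 allele, a deletion of 5 nucleotides in exon 3 that shifts the reading frame, made in the Tg(fli1:EGFP) line, whose endothelial cells are labelled with EGFP. Larvae of both genotypes grew in egg water without further treatment, so genotype is the only condition compared, and the question of the comparison is what loss of this aldehyde-detoxifying enzyme does to the larva. The heart was not dissected, and the libraries hold RNA from every tissue. Markers of other tissues were present at high levels, as for the neuronal gene ELAVL3 with 9962 to 11902 normalized counts and the liver gene fabp10a with 2074 to 4794.

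Libraries held between 19792930 and 20703518 counts, of which the 13 heart genes together made up between 0.00635% and 0.0111%. The targeted gene was taken to be the one listed as ALDH2, a match by name alone. That ALDH2 is aldh2.1 could not be read from these tables. It had 91.3 ± 35.7 normalized counts (SD, n = 5) in aldh2.1-/- and 220.4 ± 19.8 (n = 5) in aldh2.1+/+ libraries. It was lower in 5 of 5 aldh2.1-/- libraries (-1.27 on the log2 scale, SE 0.21, edgeR adjusted p = 0.134, Benjamini-Hochberg). Over the alternatives the adjusted p ranged from 3.2e-05, with DESeq2, to 0.415, and by edgeR it was under 0.05 only without aldh2.1-/- replicate 2, at 0.00688. Its close copy aldh2.2, with which it could share reads, had 37.8 ± 5.85 and 292 ± 28.8 normalized counts (-2.95 on the log2 scale, SE 0.13, edgeR adjusted p = 2.08e-07). In a principal component analysis of log2 CPM (counts scaled to a common library total), aldh2.1-/- replicate 1 lay farthest out on the first component, at -48.2, and aldh2.1-/- replicate 5 farthest on the other side, at 29.2. Every value below is a normalized count, that is a deposited expected count scaled for library size by the TMM method of edgeR, unless TPM (transcript abundance scaled for length and to a common total) is named.

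No heart gene passed the test between genotypes. Of the 13 genes, 12 had enough counts to be tested and nppb did not. The edgeR quasi-likelihood test gave an adjusted p under 0.05 to 0 of the 12, where 0.00929% of all 21532 genes tested passed, and DESeq2 and limma on log2(TPM) also gave 0. At an unadjusted p under 0.05, 1 of the 12 was found, myh7ba, against 5.04% of all genes. The genotypes overlapped in the values of all 13 heart genes, while 0.725% of all genes did not overlap. Of the 12 genes, 5 had a higher and 7 a lower fitted level in aldh2.1-/- larvae, and 52.1% of all genes tested were higher. Their median log2 fold change was -0.032, beside 0.0074 over all genes tested. In whole larvae, fewer heart cells and less RNA in each heart cell cannot be told apart.

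The order of levels was set by TPM. MYL7 was far above the others, at 49.7 ± 7.99 TPM (SD, n = 10), and its lowest library, at 40.4 TPM, was above the highest library of any other heart gene, at 8.07 TPM. TNNT2 ENSDARG00000020610 followed with 5.63 ± 1.5 TPM, then MYH6 ENSDARG00000079564 with 4.95 ± 1.59 TPM, and MYH7 with 3.30 ± 0.81 TPM. TNNT2 ENSDARG00000100694 and nppa had nearly the same mean, 1.90 ± 0.57 and 1.89 ± 0.78 TPM. The remaining genes lay under 1 TPM on average: NKX2-5 (0.80 ± 0.11), TBX5 (0.80 ± 0.27), myh7ba (0.71 ± 0.29), nppb (0.62 ± 0.19), gata4 (0.62 ± 0.44), MYH6 ENSDARG00000114031 (0.62 ± 0.27) and, lowest, myh6 (0.18 ± 0.087). Apart from MYL7, the ranges of all neighbours in this order overlapped over the 10 libraries. Within libraries, nppa was above NKX2-5 and MYH6 ENSDARG00000114031 above myh6 in 10 of 10, whereas each other neighbour below MYL7 was in the given order in 5 to 8 of 10, so those places are not fixed beyond the spread.

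**Figure D1:**
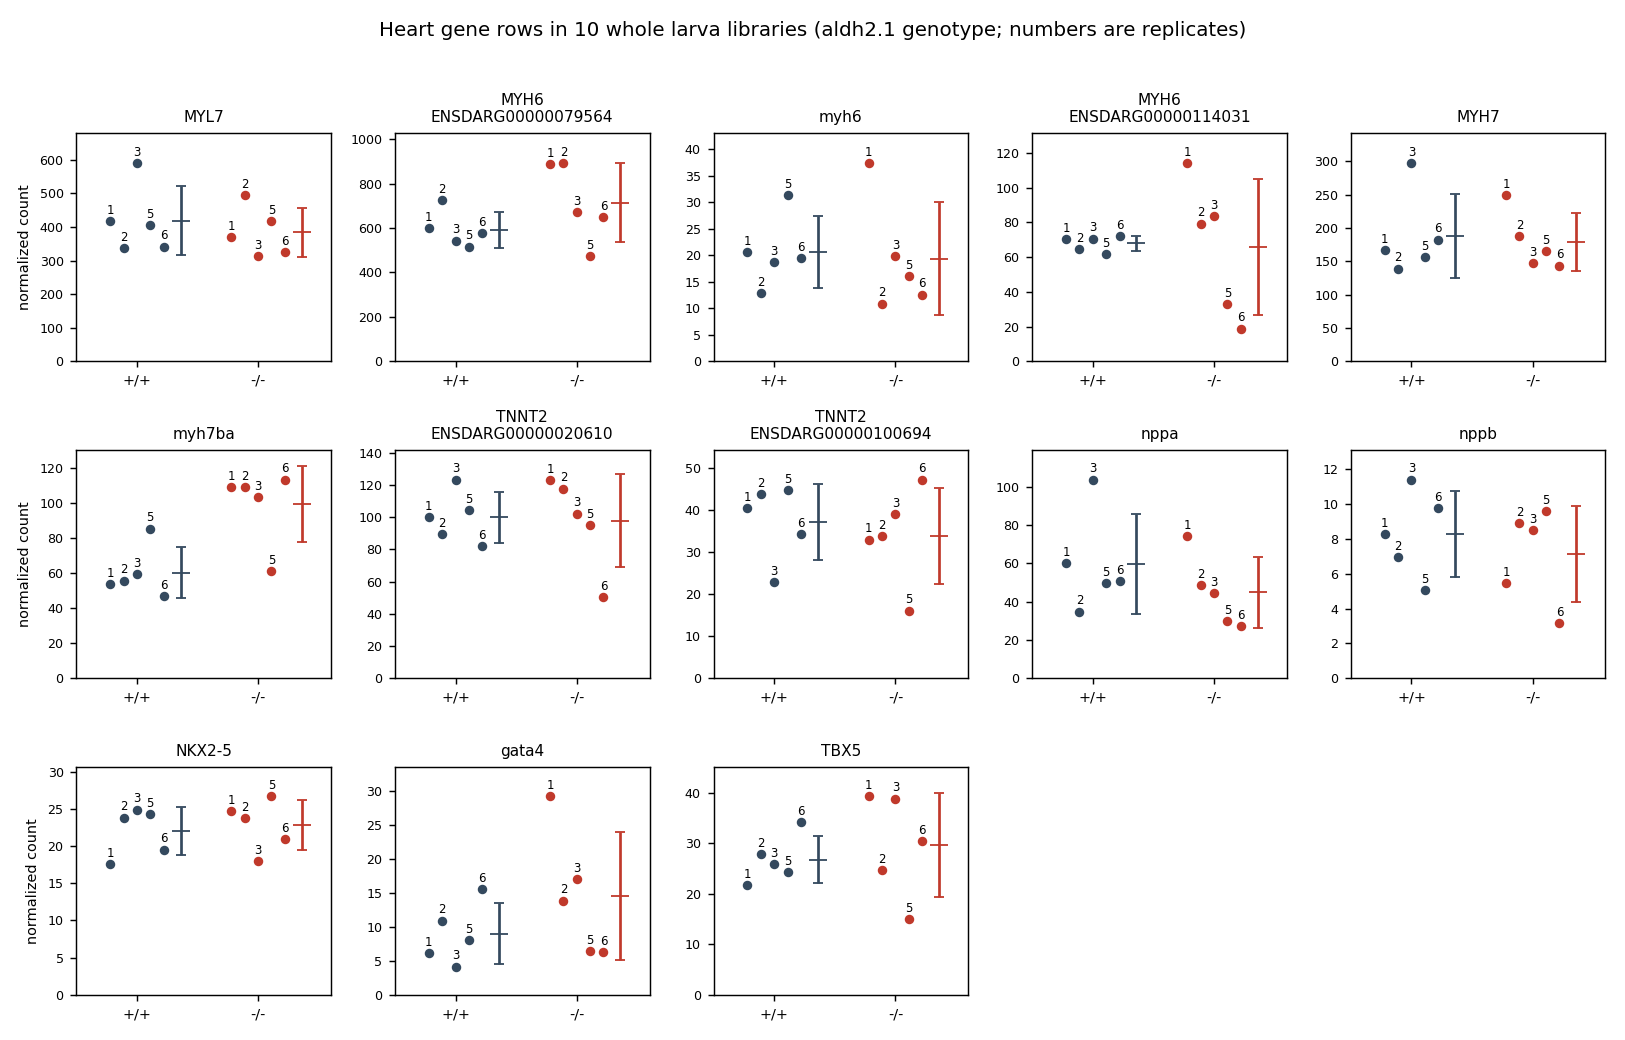
Normalized counts of the 13 heart genes (vertical axes, each from 0) in the 5 aldh2.1+/+ (dark) and 5 aldh2.1-/- (red) libraries, with the replicate number at each point and the mean and SD at the side. The groups overlap in every panel. In myh7ba, 4 of the 5 aldh2.1-/- libraries lie above the highest aldh2.1+/+ library, and in MYH6 ENSDARG00000114031 the aldh2.1-/- libraries spread from 18.9 to 114 while the aldh2.1+/+ libraries lie between 61.9 and 72.2.

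MYL7 (ENSDARG00000019096), the regulatory light chain of atrial and ventricular myosin and the usual marker of heart muscle in the fish, had 369, 494, 314, 417 and 326 counts in aldh2.1-/- replicates 1, 2, 3, 5 and 6. In aldh2.1+/+ replicates 1, 2, 3, 5 and 6 it had 419, 338, 591, 406 and 342. The groups overlapped: aldh2.1+/+ replicate 3 was the highest of the 10 libraries, and aldh2.1-/- replicates 3 and 6 were below every aldh2.1+/+ library. The log2 fold change, aldh2.1-/- minus aldh2.1+/+, was -0.13 (SE 0.17, edgeR adjusted p = 0.936), and its 95% interval ran from -0.49 to 0.24, which is a ratio of 0.714 to 1.18. Without aldh2.1+/+ replicate 3 the value was 0.032.

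The atrial heavy chain myh6 (ENSDARG00000090637) was close to the lower limit of the test, with counts of 37.5, 10.9, 19.9, 16 and 12.6 in aldh2.1-/- and 20.7, 12.9, 18.7, 31.4 and 19.5 in aldh2.1+/+ libraries, in the order of replicates 1, 2, 3, 5 and 6 that is kept from here on. The highest and the lowest of the 10 libraries were both aldh2.1-/-. The log2 fold change was -0.079 (SE 0.35, edgeR adjusted p = 0.979), with a 95% interval from -0.85 to 0.69, and it was above 0 when any of 3 libraries was left out, at most 0.12. At about 20 counts a library, the counting CV was 22.4% and the CV over all libraries 42.2%. A change much smaller than that interval was not detectable at this depth and spread between libraries.

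MYH6 ENSDARG00000079564 had the most counts of the heavy chain genes, 887, 893, 671, 472 and 648 in aldh2.1-/- and 599.5, 726, 544, 516 and 577 in aldh2.1+/+ larvae. Only aldh2.1-/- replicates 1 and 2 were above every aldh2.1+/+ library, and aldh2.1-/- replicate 5 was below them all. The log2 fold change was 0.27 (SE 0.16, edgeR adjusted p = 0.921), with a 95% interval from -0.078 to 0.62. This gene went with the skeletal muscle of the larvae more closely than any other heart gene did: the SD over the 10 libraries of its log2 ratio to the summed skeletal muscle markers was 0.16, against 0.35 to 0.75 for the other 12 genes, and its SD of the log2 ratio to MYL7 was 0.45. Which tissue this RNA came from was not tested, so its values are given without reading them as heart RNA. The gene stays among the heart genes in all counts by its symbol alone.

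MYH6 ENSDARG00000114031 differed in spread between the genotypes. It had 114, 79.2, 83.4, 33.1 and 18.9 counts in the aldh2.1-/- and 70.3, 64.5, 70.6, 61.9 and 72.2 in aldh2.1+/+ libraries. The aldh2.1+/+ libraries had a CV of 6.56%, below their counting CV of 12.1%. With so few libraries a CV can fall below the counting CV by sampling alone, which was not tested. The aldh2.1-/- libraries lay both above (3 libraries) and below (2 libraries) the aldh2.1+/+ range. Their CV was 59.4%, against a counting CV of 12.3%. The means were close, 65.8 ± 39.1 and 67.9 ± 4.46 counts, with a log2 fold change of -0.037 (SE 0.37, edgeR adjusted p = 0.991) that was 0.015 with library size alone. The difference in spread was not tested. None of the deposited counts of either gene listed as MYH6 was within 0.01 of a whole number in any library, so reads shared with other genes were divided by an estimate. The same held for MYH7, gata4 and NKX2-5, the last being the heart gene with the lowest CV. Over all genes above 0, 47.0% to 48.3% had a whole count in a library, by a stricter limit than 0.01. By that stricter limit MYL7 was whole in 0 of 10 libraries, although within 0.01 it was whole in 10 of 10. The share over all genes is therefore not on the rule used for the heart genes. The part of the divided reads in the spread was not tested.

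MYH7 (ENSDARG00000079782), matched to the ventricular heavy chain vmhc, had 249, 188, 148, 165 and 144 counts in the aldh2.1-/- and 166, 139, 298, 156 and 183 in aldh2.1+/+ libraries. As for MYL7, aldh2.1+/+ replicate 3 was the highest of all, and the remaining libraries of both genotypes overlapped. The log2 fold change was -0.072 (SE 0.21, edgeR adjusted p = 0.968), with a 95% interval from -0.54 to 0.39. It was 0.15 without aldh2.1+/+ replicate 3 and 0.17 when the counts of the 4 genes listed as myh6, MYH6 or MYH7 were summed, a sum chosen after seeing the data. In TPM the order of libraries was another, with aldh2.1-/- replicate 5 highest at 4.70 TPM and aldh2.1+/+ replicate 3 next at 4.07 TPM. TPM also depends on the transcripts to which the reads of a gene were assigned, whose part in this was not tested.

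The heart gene with the largest fold change was myh7ba (ENSDARG00000076075), a copy of the slow-type myosin heavy chain gene myh7b, which in mammals is known from heart and slow skeletal muscle. It had 109, 109, 103, 60.8 and 113 counts in the aldh2.1-/- and 53.7, 55.6, 59.1, 85.2 and 46.9 in aldh2.1+/+ larvae. In aldh2.1-/- libraries 4 of 5 were above the highest aldh2.1+/+ library, and the groups overlapped through aldh2.1-/- replicate 5, which was low, and aldh2.1+/+ replicate 5, which was high. The means were 99.0 ± 21.6 and 60.1 ± 14.7 counts (SD, n = 5 each), which is 0.72 on the log2 scale (SE 0.20) with a 95% interval from 0.28 to 1.16, or a ratio of 1.65 (1.21 to 2.24). An exact permutation test on log2 CPM, two-sided, gave p = 0.0159, where 5 against 5 libraries cannot go under 0.00794. The difference did not pass over all genes (unadjusted p = 0.00367, edgeR adjusted p = 0.921), and 2.83% of all genes had an unadjusted p under 0.05 and a higher level in aldh2.1-/- larvae.

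The direction of myh7ba was kept in all 19 alternatives, with log2 fold changes from 0.32 to 0.88. The adjusted p ranged from 0.0828, by edgeR without aldh2.1-/- replicate 5, to 1.00. Its paralog myh7bb (ENSDARG00000035322), with which it could share reads, had 350 ± 70.4 counts in the aldh2.1-/- and 276 ± 40.2 in aldh2.1+/+ libraries (0.34 on the log2 scale, SE 0.14, edgeR adjusted p = 0.921), and summed with myh7bb the log2 fold change was 0.42. The deposited counts of myh7ba were within 0.01 of a whole number in 3 of 10 libraries.

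Skeletal muscle RNA varied beside these values. The 20 skeletal muscle marker genes, none at 0 in any library, summed to between 766457 and 1323658 counts in the aldh2.1-/- and between 874336 and 1185641 in aldh2.1+/+ libraries. The highest sum was in aldh2.1-/- replicate 1 and the lowest in aldh2.1-/- replicate 5, which was also the lowest aldh2.1-/- library for myh7ba. The slow muscle myosin smyhc1 likewise had 1946 counts in aldh2.1-/- replicate 5, against 3634 to 5728 in the other aldh2.1-/- and 2998 to 3833 in the aldh2.1+/+ libraries. At sums of 1054194 to 1163820, aldh2.1-/- replicates 2, 3 and 6 had 103 to 113 counts of myh7ba, and at 1066828 and 1185641, aldh2.1+/+ replicates 2 and 1 had 55.6 and 53.7. The part of skeletal muscle in the difference of myh7ba was not tested.

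**Figure D2:**
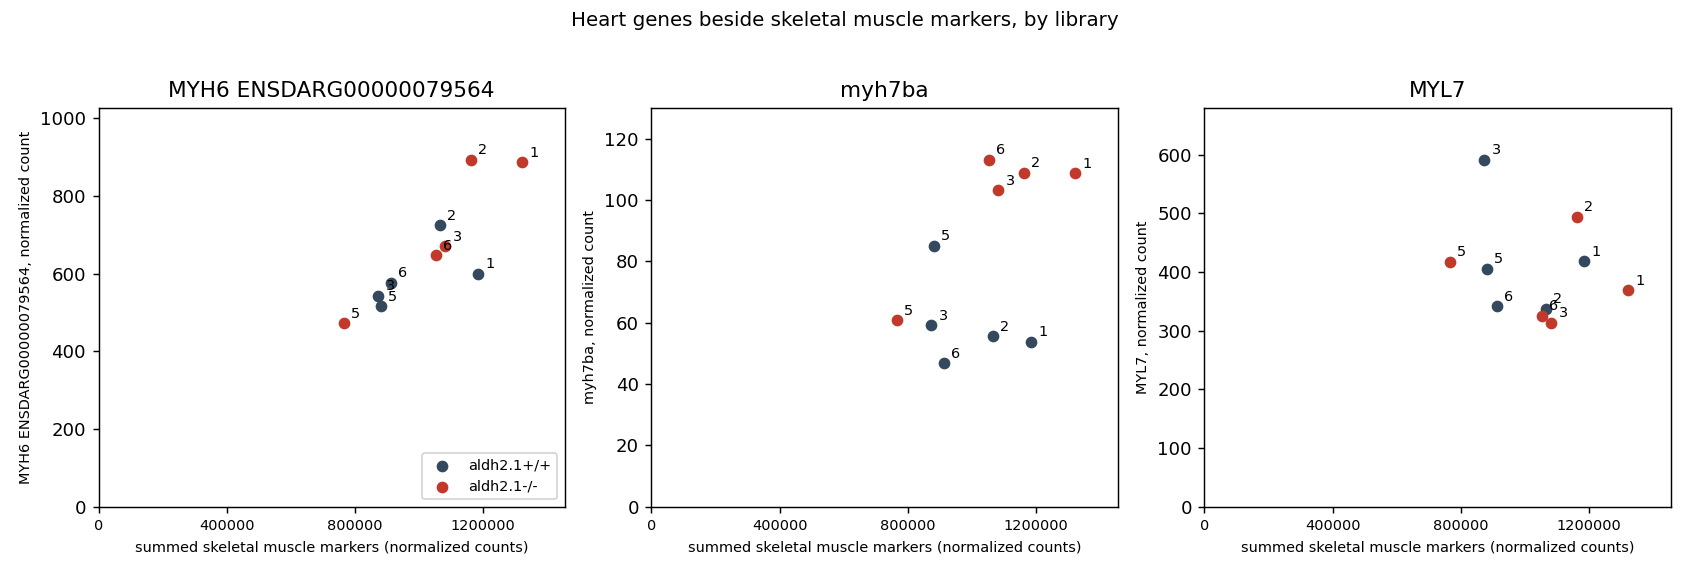
Normalized counts of MYH6 ENSDARG00000079564, myh7ba and MYL7 (vertical axes) against the summed normalized counts of the 20 skeletal muscle markers (horizontal axes), with 1 point per library and its replicate number. MYH6 ENSDARG00000079564 goes up with the skeletal sum, myh7ba is higher in aldh2.1-/- replicates 2, 3 and 6 than in aldh2.1+/+ libraries of like sum (no aldh2.1+/+ library reaches the sum of aldh2.1-/- replicate 1), and MYL7 shows no such order.

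Troponin T, which ties the calcium switch to the thin filament and whose gene tnnt2a is needed for the zebrafish heart to beat, was represented by the genes listed as TNNT2. TNNT2 ENSDARG00000020610 had 123, 118, 102, 95 and 50.3 counts in the aldh2.1-/- and 100.3, 89.3, 123, 104 and 82.0 in aldh2.1+/+ larvae. The groups overlapped, and aldh2.1-/- replicate 6 stood lowest. Its log2 fold change was -0.027 (SE 0.21, edgeR adjusted p = 0.988, 95% interval -0.49 to 0.43), and 0.012 with library size alone.

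TNNT2 ENSDARG00000100694 had 32.9, 33.7, 38.9, 16 and 47.1 counts in the aldh2.1-/- and 40.3, 43.7, 22.8, 44.6 and 34.2 in aldh2.1+/+ larvae, which overlapped. Its log2 fold change was -0.14 (SE 0.27, edgeR adjusted p = 0.954, 95% interval -0.73 to 0.45). Libraries did not order these genes alike. Where TNNT2 ENSDARG00000020610 was lowest, in aldh2.1-/- replicate 6, TNNT2 ENSDARG00000100694 was highest, and in aldh2.1+/+ replicate 3 the former was highest and the latter the lowest of its genotype. The SD of the log2 ratio to MYL7 was 0.31 for TNNT2 ENSDARG00000020610 and 0.65 for TNNT2 ENSDARG00000100694.

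The natriuretic peptide gene nppa (ENSDARG00000052960), which in the zebrafish marks the working muscle of both chambers, had 74.0, 48.5, 44.5, 29.9 and 27.2 counts in the aldh2.1-/- and 60.0, 34.7, 104, 49.7 and 50.8 in aldh2.1+/+ libraries. The aldh2.1-/- replicates 5 and 6 were below every aldh2.1+/+ library, while aldh2.1-/- replicate 1 was above all of them but replicate 3. The means were 44.8 ± 18.7 and 59.8 ± 26.2 counts (-0.40 on the log2 scale, SE 0.32, edgeR adjusted p = 0.923). The 95% interval of the log2 fold change, from -1.10 to 0.29, covers a ratio from 0.466 to 1.22. The value rested in part on single libraries, being -0.11 without aldh2.1+/+ replicate 3 and -0.66 without aldh2.1-/- replicate 1.

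The gene beside it, nppb (ENSDARG00000052958), codes for the B-type peptide, and no other annotated gene lies between them in RefSeq (GRCz12tu). It had 5.48, 8.91, 8.53, 9.61 and 3.14 counts in the aldh2.1-/- and 8.27, 6.95, 11.4, 5.07 and 9.76 in aldh2.1+/+ larvae. The lowest library was aldh2.1-/- replicate 6, the highest aldh2.1+/+ replicate 3, and the groups overlapped. At 7.71 counts on average the gene failed the expression filter. The two-sided exact permutation p was 0.5 (n = 5 each), and without the filter edgeR gave a log2 fold change of -0.22 (SE 0.40). Counting alone gives a CV of 36% here and the CV over the libraries was 32.7%. A difference that is small beside that SE could not be seen at this depth.

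Among the transcription factors, NKX2-5 (ENSDARG00000018004), a homeodomain factor of heart precursor cells, was the steadiest of the heart genes, with a CV over all libraries of 14.1%. It had 24.7, 23.8, 18, 26.7 and 21.0 counts in the aldh2.1-/- and 17.6, 23.8, 24.9, 24.3 and 19.5 in aldh2.1+/+ libraries. The groups lay on top of each other, and the log2 fold change was 0.049 (SE 0.21, edgeR adjusted p = 0.976, 95% interval -0.40 to 0.50).

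The zinc finger factor gata4 (ENSDARG00000098952), also active in gut and liver precursors, was the most variable, with a CV of 64.1%. Its counts were 29.2, 13.9, 17.1, 6.40 and 6.29 in aldh2.1-/- and 6.20, 10.9, 4.15, 8.11 and 15.6 in aldh2.1+/+ larvae. Here aldh2.1-/- replicate 1 stood above all libraries, and aldh2.1-/- replicates 5 and 6 were among the low ones. The log2 fold change of 0.70 (SE 0.47, edgeR adjusted p = 0.921) had a 95% interval from -0.31 to 1.71, and without aldh2.1-/- replicate 1 it was 0.28.

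TBX5 (ENSDARG00000024894), matched to tbx5a, which shapes the heart and the pectoral fins, had 39.3, 24.8, 38.9, 14.9 and 30.4 counts in the aldh2.1-/- and 21.7, 27.8, 25.9, 24.3 and 34.2 in aldh2.1+/+ larvae. The highest and the lowest library were again both aldh2.1-/-. Its log2 fold change was 0.15 (SE 0.26, edgeR adjusted p = 0.946, 95% interval -0.42 to 0.72), and 0.028 without aldh2.1-/- replicate 1.

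**Figure D3:**
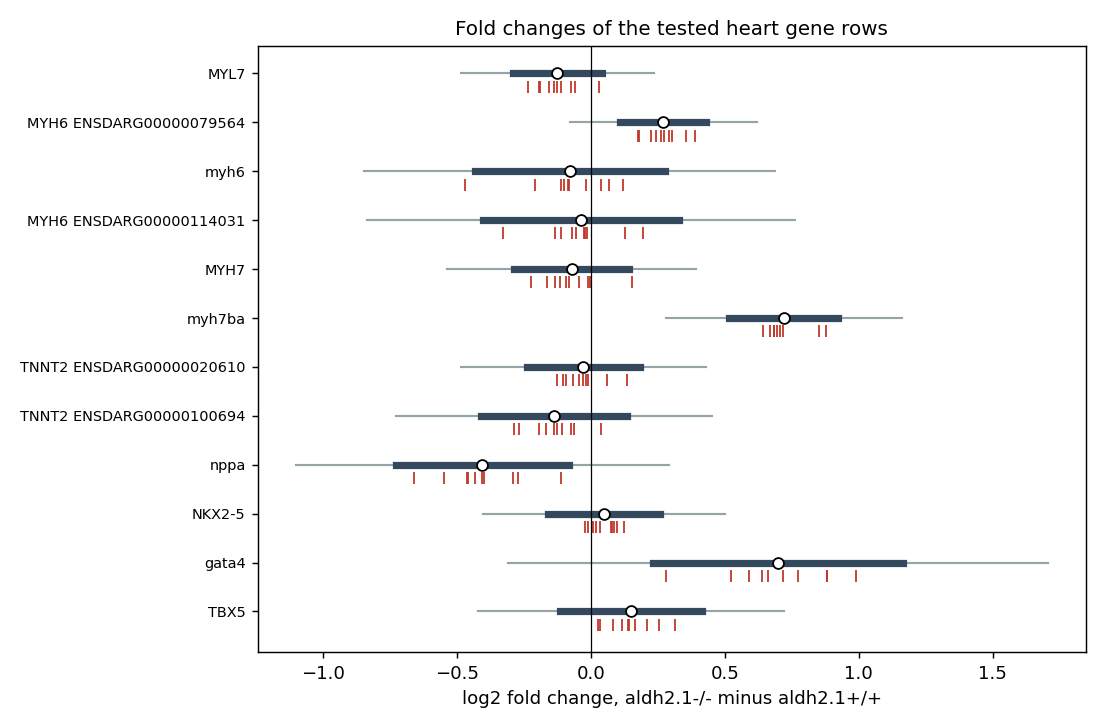
Log2 fold changes of the 12 tested heart genes (circles) with 1 SE to each side (thick bars) and the 95% interval (thin lines), from the edgeR fit, and the value without each library in turn (red ticks). The interval lies above 0 for myh7ba alone, before any adjustment over the 21532 genes tested, and the ticks of 7 genes cross 0.

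Libraries of the same genotype differed in many of these genes by more than counting alone would give. The CV was above 2 times the counting CV in 9 of the 13 heart genes among aldh2.1-/- libraries and in 4 among aldh2.1+/+ libraries. The share of all genes above that limit was not counted. Over all genes with enough counts, chi-square divided by its degrees of freedom was 14.9 to 77.1 for pairs of aldh2.1-/- libraries. For pairs of aldh2.1+/+ libraries it was 7.47 to 26.5, a range that overlaps that of the aldh2.1-/- pairs. Genes with many counts weigh most in this measure. It therefore cannot say whether the heart genes spread more than other genes of like level. For NKX2-5 the CV was below the counting CV in both genotypes (14.9% against 20.9% and 21.3%). The library of aldh2.1+/+ replicate 3 was the highest of the 10 in 5 genes, namely MYL7, MYH7, TNNT2 ENSDARG00000020610, nppa and nppb. For nppb this was 11.4 counts against 9.76 in the next library, aldh2.1+/+ replicate 6, which is within its counting CV of 36%. In contrast, aldh2.1-/- replicate 1 was highest in 4 others, namely myh6, MYH6 ENSDARG00000114031, gata4 and TBX5, and it was above the median of the 10 libraries in 10 of the 13 genes. The low values were in aldh2.1-/- libraries too: replicate 6 was lowest in MYH6 ENSDARG00000114031, TNNT2 ENSDARG00000020610, nppa and nppb, and replicate 5 in MYH6 ENSDARG00000079564, TNNT2 ENSDARG00000100694 and TBX5.

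Genes of the heart lists outside the 13 did not share one order of libraries. Of 45 tested genes in the cardiac sarcomere, calcium handling and cardiac transcription factor lists, aldh2.1+/+ replicate 3 was the highest library in 7 and the lowest in 7. Among aldh2.1-/- libraries, replicate 6 was the highest in 2 and the lowest in 8, and replicate 1 the highest in 16 and the lowest in 8. The library of aldh2.1-/- replicate 5 was the highest in 4 and the lowest in 9. The lists differed, counted here with their untested genes. In aldh2.1-/- replicate 1, of 15 cardiac sarcomere genes 7 were highest and 1 lowest. Of 12 calcium handling genes 4 were highest and 1 lowest there, and of 20 transcription factors 5 and 7. In aldh2.1+/+ replicate 3 these counts were 4 and 2, 3 and 3, and 1 and 2. The transcription factors include ISL2, a factor of motor and sensory neurons, so their RNA need not come from the heart. The shares over all genes were not counted. Examples of like extremes, chosen after their values were seen, are cmlc1 and pln1. The essential light chain cmlc1 had 54.5 counts in aldh2.1-/- replicate 6 and 195 in aldh2.1+/+ replicate 3, the lowest and the highest of its 10 libraries. The gene pln1, a phospholamban, had 9.43 and 90.3 counts in the same libraries. TBX20, by contrast, was lowest in aldh2.1+/+ replicate 3, at 35.3 counts. The neuronal marker ELAVL3 had 11902 counts in aldh2.1-/- replicate 6, the highest of its 10 libraries, and 10137 in aldh2.1+/+ replicate 3, while the skeletal muscle sum ranked 6 and 9 of 10 from the highest there. Whether heart cell number, heart RNA or pooling differed in these libraries was not tested.

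**Figure D4:**
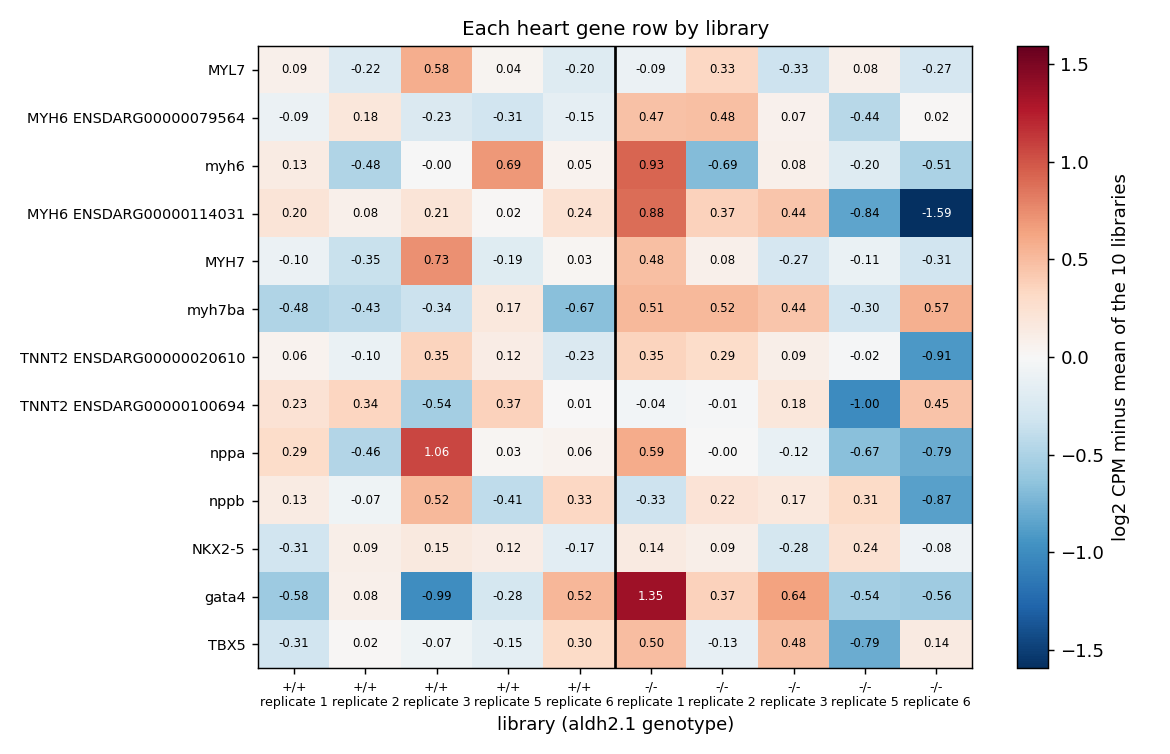
Log2 CPM of each heart gene (lines) minus its mean over the 10 libraries (columns, aldh2.1+/+ left and aldh2.1-/- right of the black line), in colour and figures. In aldh2.1+/+ replicate 3 nppa stands 1.06 above its mean, MYH7 0.73 and MYL7 0.58, and in aldh2.1-/- replicate 6 MYH6 ENSDARG00000114031 stands at -1.59, TNNT2 ENSDARG00000020610 at -0.91 and nppb at -0.87.

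Ratios within a library leave out how much heart RNA the library holds. The log2 ratio of nppa to MYL7, in TPM, was -4.93 ± 0.74 in aldh2.1-/- and -4.69 ± 0.32 in aldh2.1+/+ libraries (SD, n = 5 each), and that of nppb to MYL7 was -6.44 ± 0.67 and -6.34 ± 0.43. For nppa to nppb it was 1.51 ± 0.80 and 1.64 ± 0.46. The ratio of myh6 to MYH7 was -4.21 ± 0.98 and -4.27 ± 0.55, which is atrial to ventricular only if the gene listed as MYH7 is vmhc. In all 4 ratios the groups overlapped and the means differed by less than the smaller SD, and no test was made of them. Leaving out single libraries moved the difference of means, aldh2.1-/- minus aldh2.1+/+, from -0.24 to between -0.51 and -0.076 for nppa to MYL7. For the others it changed sign, between -0.29 and 0.16 for nppb to MYL7, -0.41 and 0.11 for nppa to nppb, and -0.23 and 0.29 for myh6 to MYH7. The SD was larger among aldh2.1-/- libraries in each ratio, which was not tested.

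Across the 10 libraries, the closest pairs of heart genes were MYL7 with MYH7 and MYL7 with NKX2-5, with an SD of the log2 ratio of 0.26 in both, followed by MYL7 with TNNT2 ENSDARG00000020610 (0.31) and MYH7 with nppa (0.32). The SD of log2 CPM of single genes was 0.29 for MYL7, 0.35 for MYH7 and 0.19 for NKX2-5. Because NKX2-5 varied little, its ratio to MYL7 varied almost as much as MYL7 alone. As a description over all genes with at least 50 normalized counts and as large a spread, the genes most like MYL7 were mt-atp8, TPH1 and MPV17L2, with SDs of the log2 ratio of 0.17, 0.18 and 0.18 against a median of 0.49 over 3657 genes. Those most like MYH7 were PPL, TTC36 and GFUS (0.14, 0.15 and 0.18, median 0.54 over 2137 genes). Those most like MYH6 ENSDARG00000079564 were FIBCD1, CPOX and the skeletal muscle actin actc1b (0.13, 0.14 and 0.15, median 0.45 over 3039 genes). None of these 9 genes is a heart member, and with 10 libraries that share depth and composition the smallest SD among so many genes is low in any case.

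The lists of related genes gave no call either. Of 90 tested genes in 6 lists, edgeR gave an adjusted p under 0.05 to 0. DESeq2 gave it to 1, TNNT3 ENSDARG00000030270, where it called 0.0825% of all genes. Without aldh2.1-/- replicate 5, edgeR gave it to 3, namely MYOZ2 ENSDARG00000012311, TNNI2 ENSDARG00000029069 and TNNT3 ENSDARG00000030270, where it called 0.221% of all genes. At an unadjusted p under 0.05 there were 7 higher and 1 lower, beside 2.83% higher and 2.21% lower of all genes. For the counts by list below, 52.1% of all genes tested were higher, with a median log2 fold change of 0.0074.

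In the cardiac sarcomere list, 9 of 14 tested genes were higher and 5 lower (median 0.19 on the log2 scale), and 3 had an unadjusted p under 0.05, all higher. The first of these was MYL2 ENSDARG00000104722, the regulatory light chain of ventricle and slow skeletal muscle in mammals, with 316, 254, 234, 208 and 208 counts in the aldh2.1-/- and 194, 199.5, 151, 174 and 191 in aldh2.1+/+ libraries. These did not overlap, as in 0.725% of all genes (0.42 on the log2 scale, SE 0.13, edgeR adjusted p = 0.921). The exact permutation test, two-sided, gave p = 0.00794 for it, the lowest that 5 against 5 libraries can give. Any gene whose groups do not overlap gets that p, so it adds nothing to the lack of overlap. The others were myh7bb and MYOZ2 ENSDARG00000012311 (0.43, SE 0.17), a calsarcin of the Z-disc. In the second gene listed as MYL2, ENSDARG00000053424, the log2 fold change was -0.094 (SE 0.13). The lower genes also included tnnc1a (-0.38, SE 0.23), actc1a (-0.33, SE 0.44) and cmlc1 (-0.072, SE 0.28). MYBPC3 (0.21, SE 0.11) and tpm4a (0.16, SE 0.12) were among the higher. The summed counts of the list were highest in aldh2.1-/- replicate 1 and lowest in aldh2.1-/- replicate 5, as the skeletal muscle sum was. How much of this RNA came from skeletal muscle was not tested.

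In the calcium handling and excitation list, 7 of 12 were higher and 5 lower, the median being 0.012. CASQ2, the calcium store protein of heart and slow muscle, had 1770 ± 596 against 1267 ± 132 counts (0.48 on the log2 scale, SE 0.20, edgeR adjusted p = 0.921), and was highest in aldh2.1-/- replicate 1 and lowest in aldh2.1-/- replicate 5, as the skeletal muscle sum was. The gene kcnh6a, a repolarizing potassium channel of the zebrafish heart, had 277 ± 45.9 against 306 ± 29.3 counts (-0.15 on the log2 scale, SE 0.12, edgeR adjusted p = 0.923).

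In the natriuretic peptide system, 6 of 9 were higher and 3 lower, the median being 0.10. The receptor gene npr1a had 109 ± 24.0 against 85.8 ± 12.9 counts (0.34 on the log2 scale, SE 0.17, edgeR adjusted p = 0.921), while its paralog npr1b had a log2 fold change of -0.22 (SE 0.17). PRKG1 ENSDARG00000031702, a kinase that answers the cyclic GMP made by these receptors, had 613 ± 168 against 456 ± 61.3 counts (0.43 on the log2 scale, SE 0.17, edgeR adjusted p = 0.921). The C-type peptide genes nppc and nppcl were at 0.10 on the log2 scale (SE 0.15) and -0.084 (SE 0.14), and CORIN, the protease that cuts the peptide precursor in mammals, 0.47 (SE 0.29).

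In the cardiac transcription factors, 9 of 19 were higher and 10 lower, around a median of -0.017, and none had an unadjusted p under 0.05. TBX20 had 80.8 ± 38.2 against 55.9 ± 12.7 counts (0.54 on the log2 scale, SE 0.31, edgeR adjusted p = 0.921), with its highest library again aldh2.1-/- replicate 1 at 133. The closest to the threshold was ISL2 ENSDARG00000003971, a factor of motor and sensory neurons, with a log2 fold change of 0.14 (SE 0.072, edgeR adjusted p = 0.921). The second gene for tbx5, tbx5b, had -0.13 (SE 0.22). GATA6 and HAND2 were highest in aldh2.1-/- replicate 1, with 187 and 185 counts, and lowest in aldh2.1-/- replicate 6, with 54.5 and 38.8. The paralog nkx2.7 had at most 5.94 counts and was not tested.

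In the skeletal muscle list, 17 of 20 were higher and 3 lower (median 0.17 on the log2 scale), with 2 unadjusted p under 0.05. Related copies, such as the genes listed as TNNI2, TNNT3 or ACTA1, are counted separately there, so the 20 are not independent markers. TNNT3 ENSDARG00000030270, a fast muscle troponin T, had 4878 ± 776 against 3450 ± 300.5 counts (0.50 on the log2 scale, SE 0.11, edgeR adjusted p = 0.583). Its groups did not overlap, as in 0.725% of all genes. TNNI2 ENSDARG00000005841 had 328 ± 57.2 against 270 ± 28.6 (0.28, SE 0.12). In the list of other larval tissues, 10 of 16 were higher and 6 lower, the median being 0.037. The liver gene fabp10a had 2485 ± 252.1 against 3520 ± 1088 counts (-0.50 on the log2 scale, SE 0.18, edgeR adjusted p = 0.921). It had 4794 and 4596 counts in aldh2.1+/+ replicates 1 and 2. In aldh2.1+/+ replicates 5 and 6 it had 2525 and 2689, within the range of the aldh2.1-/- libraries. The other liver gene of the list, tfa, went the other way, at 0.20 (SE 0.31). The endothelial gene cdh5 had 656 ± 37.0 against 590.3 ± 40.4 counts (0.15, SE 0.071).

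**Figure D5:**
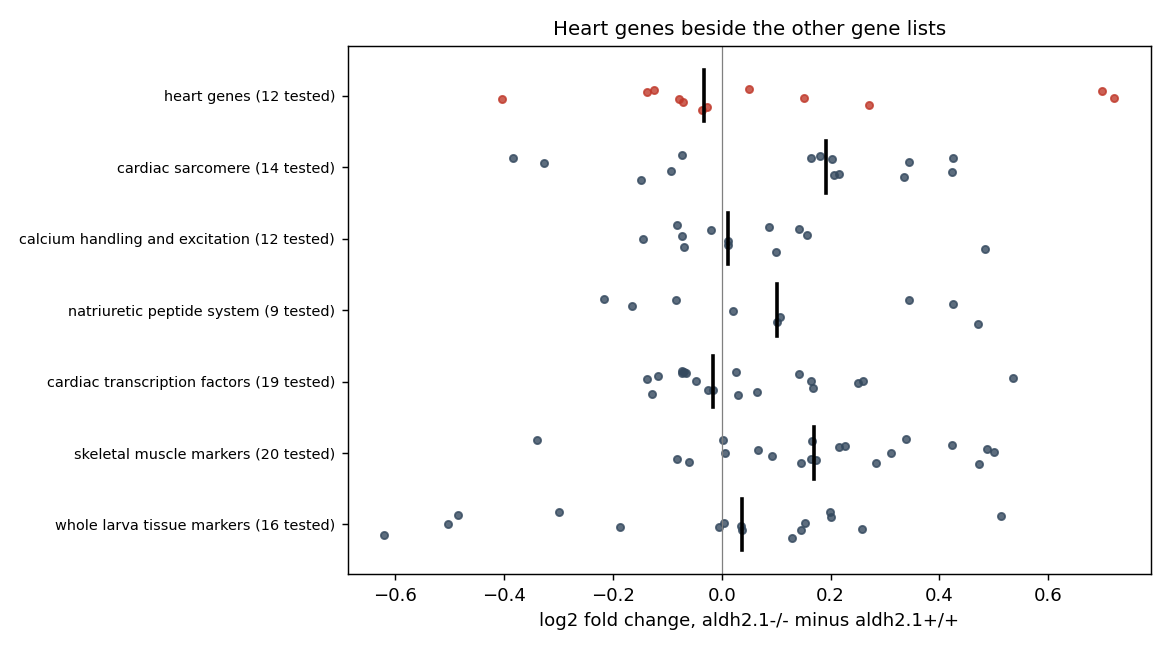
Log2 fold change of each tested gene (points) in the heart genes and the 6 lists, from the edgeR fit, with the median of each as a black line. The heart genes center on -0.032 with myh7ba and gata4 at the right edge, the cardiac sarcomere and skeletal muscle lists on 0.19 and 0.17, and no point stands for an adjusted p under 0.05.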

How the data were processed

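RNA-seq of whole larvae was analysed, with 1 library per clutch, 5 clutches per genotype and 50 larvae per clutch. Genotypes and replicate numbers come from the sample labels. The authors deposited 2 tables a library: expected counts, estimated per gene and without any scaling, and TPM, which corrects for transcript length and gives every library an equal total. The submitters' processing notes list Trim Galore 0.6.4, kallisto 0.4.6 and the build GRCz11. The RefSeq table used for other gene names and neighbours is of GRCz12tu, so no coordinates are given, and promoter and protein sequences were not used here.

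After rounding, the expected counts entered edgeR 4.0.16 (R 4.3.3) with TMM factors (0.948 to 1.08), filterByExpr with its defaults (21532 genes), a robust quasi-likelihood fit on genotype, and Benjamini-Hochberg adjustment over all genes with a threshold of 0.05. Each edgeR SE was calculated back from the test, as the absolute log2 fold change over the square root of the F statistic. The 95% intervals use this SE, and no p was adjusted over the heart genes alone. Exact two-sided permutation tests of log2 CPM (prior count 2) ran over all assignments of 5 against 5. Chi-square divided by its degrees of freedom was 7.47 or more for all pairs of same-genotype libraries. Counting CVs cover counting error only.

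Alternatives were library size alone, RLE factors, DESeq2 1.42.0, no filter, 10 or more counts in all libraries, limma 3.58.1 with log2(TPM + 1) or log2(TPM + 0.1), a replicate block, leaving out each library, and sums of related genes. On simulated data for this comparison (21532 genes), edgeR called 70 of 100 genes changed by a log2 fold of 1 and 96 of 98 changed by 2, with 6 false calls and 0 wrong signs. DESeq2 made 28 false calls on the same data. The changed genes were drawn from those with a mean above 1 CPM, and counts were drawn independently for each gene. These shares therefore do not describe genes below that level, such as gata4 and nppb. All changed genes were in the simulated data together, which makes the adjusted threshold easier to pass than when few genes change. In the data themselves edgeR called 2 genes, so the shares may be too high for this comparison.

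The heart genes, the 6 lists and the tests were chosen with earlier results of these data known. Named were all heart genes, the targeted gene, the copies that could share reads, of each list the genes past the adjusted threshold or else the 2 with the smallest p, and the 3 genes most like each heart gene with a mean of at least 100 counts. The genes aldh2.2, MYOZ2, MYL2 ENSDARG00000053424, TNNI2 ENSDARG00000029069, npr1b, nppc, nppcl, CORIN, tbx5b, GATA6, HAND2, nkx2.7, cmlc1, pln1, smyhc1 and ELAVL3 are outside this rule and were chosen after their values were seen. The same holds for tnnc1a, actc1a, MYBPC3, tpm4a and tfa. Of the symbols sought, vmhcl, myh7l, scn5lab, hcn4l, mylpfa, mylpfb and mylz3 were not matched. Where a list symbol itself was not found, its copy letter or number was dropped, and every gene listed under that shorter symbol entered the list. Examples are MYL2, MYOZ2, TTN, TNNI2, ISL2 and PRKG1. Which of such genes is the copy sought could not be told, so the list counts include copies that were not sought. Plots were made with Python 3.11.15 and matplotlib 3.10.9.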

Additional observations from a re-analysis of the deposited data

Results flagged for a closer look

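Within each genotype, the highest or the lowest of the 5 libraries was compared with the nearest of the others by Dixon's test for the heart genes, the ratios and the 12 named list genes, 58 groups in all. It set 4 libraries apart, and chance alone sets apart about 1 in 20 groups. MYH7 had 298 normalized counts in aldh2.1+/+ replicate 3, with 183 in the nearest aldh2.1+/+ library. In aldh2.1-/- replicate 5, myh7ba had 60.8 counts, with 103 in the nearest aldh2.1-/- library. In the same library kcnh6a had 359 counts, with 260.5 in the nearest. The receptor gene npr1a had 108 counts in aldh2.1+/+ replicate 2, with 85.1 in the nearest.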

How the results depend on the processing

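The number of heart genes past the adjusted threshold was 0 in all 18 alternatives. For all genes it was 2, and it was 24 with DESeq2, 4 with no filter, 1 with a replicate block and between 2 and 48 without single libraries, with 48 without aldh2.1-/- replicate 5 and 4 without aldh2.1-/- replicate 1. For the list genes it was 0, 1 with DESeq2 and 0 to 3 without single libraries. The fold changes of 5 of the 12 tested heart genes kept their sign throughout (MYH6 ENSDARG00000079564, myh7ba, nppa, gata4 and TBX5). The log2 fold change of MYH6 ENSDARG00000114031 was 0.015, and that of TNNT2 ENSDARG00000020610 0.012, with library size alone, and that of MYH7 was 0.17 with 4 genes summed. Without single libraries the ranges were -0.23 to 0.032 for MYL7, -0.47 to 0.12 for myh6, -0.33 to 0.20 for MYH6 ENSDARG00000114031, -0.22 to 0.15 for MYH7, -0.13 to 0.13 for TNNT2 ENSDARG00000020610, -0.28 to 0.037 for TNNT2 ENSDARG00000100694 and -0.022 to 0.12 for NKX2-5. The cause of these changes was not tested. The sum of vmhc with vmhcl was not run because vmhcl was not matched.

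The labels do not say whether libraries of equal replicate number belong together. Over 16921 genes the deviations of same-numbered libraries correlated between -0.20 and 0.16. Of the aldh2.1-/- libraries, replicate 5 alone correlated best with its own number. Such correlations cannot decide whether the libraries were paired, because a shared factor may move few genes. With the replicate block 1 gene passed over all genes and 0 heart genes did, and the log2 fold change of myh7ba was 0.72 (SE 0.25, edgeR adjusted p = 0.988).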
